A study of Mus musculus with 8 samples.

Results

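The matrix proteases and their inhibitors were followed in KPC pancreatic tumors as 35 genes, taken by symbol from a table of 29968 genes. They comprised 18 matrix metalloproteinases (MMPs), of which 11 are secreted and 7 are anchored to the cell membrane, the 4 tissue inhibitors of metalloproteinases (TIMPs), 7 membrane proteases of the ADAM family and 6 secreted proteases of the ADAMTS family. All 35 were in the table and all 35 passed the filter on low counts. Bulk RNA-Seq had been performed on tumors from 4 wild-type (WT) C57BL/6J hosts and 4 hosts that lacked the complement component C3 (C3-/-), all male and 12 weeks of age. Every host, of either genotype, had received 250000 KPC cells in 50 µL of PBS in the pancreas. KPC cells are pancreatic cancer cells isolated from a tumor of a genetically engineered mouse, and the line used was FC1245. The deletion is in the host, the injected cells still carry the C3 gene, and all tumors grew from 1 cell line. The comparison asks whether loss of host C3 was accompanied by a different tumor transcriptome, here for the genes that cut and remodel the extracellular matrix.

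MMPs are zinc proteases, made mostly as inactive proenzymes, that cleave collagens, gelatin, elastin, proteoglycans and cell surface proteins. TIMPs bind their active sites and block them, and TIMP3 also blocks several ADAM and ADAMTS proteases. ADAMs release the outer part of membrane proteins such as cytokines, growth factors and Notch receptors, and ADAMTS proteases process procollagens and cut large proteoglycans. Pancreatic ductal tumors are known for a dense, fibroblast-rich matrix in which these enzymes come from tumor cells, fibroblasts and infiltrating myeloid cells. In bulk tumor RNA, a lower level cannot be told apart as fewer cells of a type or less transcript per cell.

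The total count per tumor was 13.3 to 23.4 M, and 3 counts in a tumor corresponded to 0.128 to 0.226 CPM (counts scaled to library size, with TMM normalization). C3, the targeted gene, stood at 296 ± 100.1 CPM in WT tumors and 111 ± 15.7 CPM in C3-/- tumors (SD, n = 4 each), with no overlap of the groups (log2 fold change -1.42, SE 0.23, edgeR adjusted p = 0.933). Tumor epithelium was present throughout, with 6 keratin and adhesion markers summing to 5948 to 9895 CPM in WT and 5245 to 8882 CPM in C3-/- tumors. The tumors differed in admixed tissue within both genotypes. The summed level of 10 skeletal muscle markers was 1685 CPM or more in 5 tumors and 16.1, 32.0 and 25.9 CPM in WT 2, WT 3 and C3-/- 2. The 10 acinar cell markers summed to 169 to 535 CPM in WT tumors, to 1786 CPM in C3-/- 1 and to 67.4, 42.6 and 39.5 CPM in C3-/- 2, 3 and 4.

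By transcript level, inhibitors and a few broadly expressed proteases led the group. Levels between genes are given as the deposited FPKM, which corrects for gene length. Timp1, the inducible inhibitor, was at 172 ± 86.8 FPKM and Timp2, which both inhibits MMPs and takes part in activation of progelatinase A, at 140.4 ± 7.21 FPKM (SD, n = 8). Timp1 was above Timp2 in 5 of the 8 tumors, so their order was not settled beyond the spread. Timp2 was above Mmp14, the membrane collagenase that activates progelatinase A, in 8 of 8 tumors (Mmp14, 92.0 ± 15.8 FPKM). Next came the membrane sheddases Adam9 at 73.4 ± 11.7 FPKM and Adam10 at 43.7 ± 4.41 FPKM, and gelatinase A itself, Mmp2, at 34.0 ± 9.53 FPKM. Adam9 exceeded Adam10 in 8 of 8 tumors and Adam10 exceeded Mmp2 in 6.

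Below these the order was shallow. Adam15 (14.5 FPKM), Mmp15 (14.5), Timp3 (14.4), Adamts1 (13.3), Mmp23 (12.5), Mmp9 (11.98) and Adam17 (11.96) made up the remaining genes above 10 FPKM, and each stood above the next in 3 to 6 of the 8 tumors. In all, 30 of the 35 genes averaged at least 1 FPKM. The other 5 were the membrane-anchored Mmp24 (0.290 FPKM), Mmp17 (0.272), Mmp25 (0.163) and Mmp16 (0.0852) and the inhibitor Timp4 (0.159). The plot of FPKM by gene shows this range together with the tumor-to-tumor scatter.

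**Figure D1:**
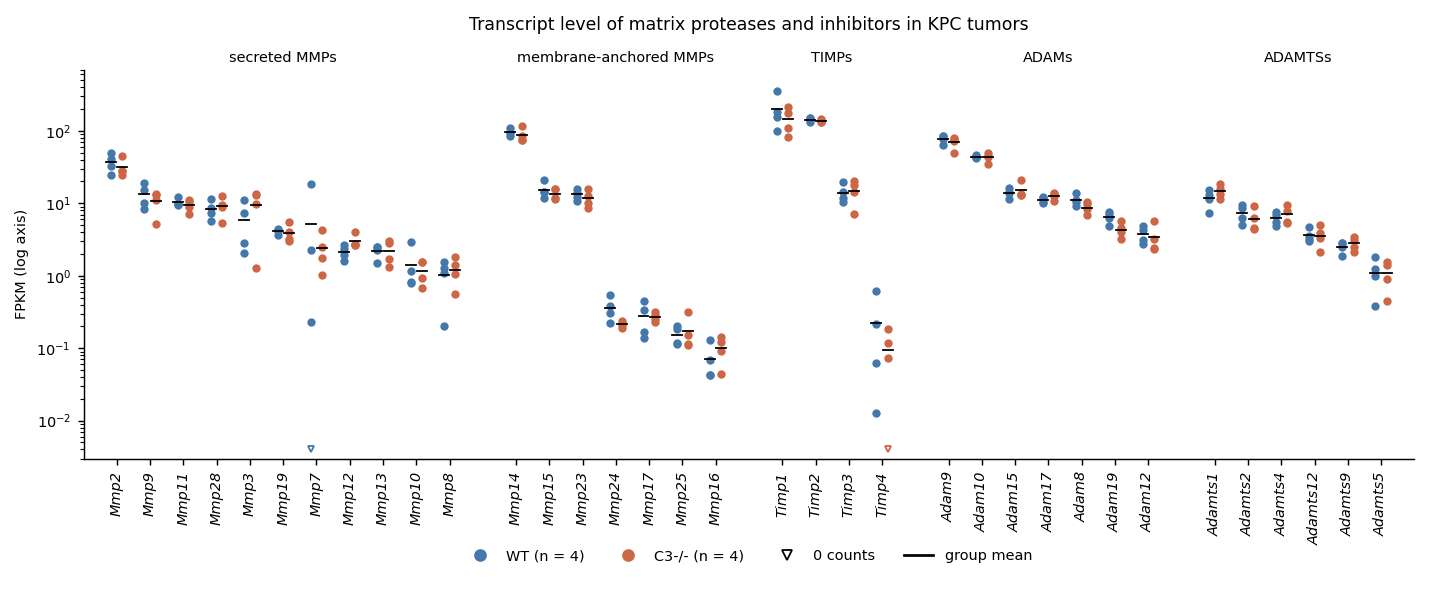
FPKM (log axis) of the 35 genes in each of 4 WT (blue) and 4 C3-/- (orange) tumors, grouped by class and ordered by mean level, with group means as black bars and tumors with 0 counts as open triangles at the bottom. Timp1, Timp2, Mmp14 and Adam9 lie above 50 FPKM on average, and 4 membrane-anchored MMPs and Timp4 lie below 1 FPKM.

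A few genes held most of each family's transcript. Mmp14 made up 44.5 ± 2.84% of the summed MMP FPKM in WT and 44.2 ± 4.64% in C3-/- tumors, and Timp1 and Timp2 together made up 95.7 ± 1.49% and 94.8 ± 2.23% of the TIMP FPKM (SD, n = 4). The summed MMP level was 216 ± 21.5 FPKM in WT and 197 ± 29.99 in C3-/- tumors, and the summed TIMP level 356 ± 105 and 298 ± 50.4 FPKM. The ratio of the MMP sum to the TIMP sum was 0.804, 0.773, 0.421 and 0.585 in WT tumors 1 to 4 and 0.662, 0.686, 0.667 and 0.643 in C3-/- tumors 1 to 4. The C3-/- values thus lay inside the WT range, and the low WT 3 value belonged to the tumor with the highest Timp1. ADAM sums were 168 ± 10.8 and 157 ± 17.8 FPKM and ADAMTS sums 32.6 ± 7.79 and 35.4 ± 7.97 FPKM.

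The plot of log2 fold changes shows small differences between host genotypes in these genes, none of which passed the adjusted threshold. With edgeR, 0 of the 35 genes had an adjusted p below 0.05, against 0% of all 16610 genes tested, and the smallest adjusted p in the group was 0.960 (Adam19). At an unadjusted p below 0.05, 2 genes were found, Mmp12 higher and Adam19 lower in C3-/- tumors, against 5.11% of all genes (3.03% higher and 2.07% lower). DESeq2 on the same counts gave an adjusted p below 0.05 for 0 of the 35 genes (0.0799% of the genes it tested) and an unadjusted p below 0.05 for 2 (3.98%). Of the 35 genes, 13 had a higher and 22 a lower fitted level in C3-/- tumors, where 50% of all genes tested were higher. The median log2 fold change was -0.045, with a range of -1.22 to 0.67, and 29 of the 35 lay within 0.5 of 0. The standard errors ran from 0.11 to 1.25 (median 0.25, against 0.22 for all genes). C3 itself, at -1.42 with an SE of 0.23, did not reach the adjusted threshold, so a count of 0 does not by itself bound the differences. The bound differed by gene. It was close for Timp2 (-0.045, SE 0.11) and Mmp14 (-0.13, SE 0.17). For Mmp7 (-1.09, SE 1.25) and Timp4 (-1.22, SE 1.01) a difference of the size of C3 stayed possible.

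**Figure D2:**
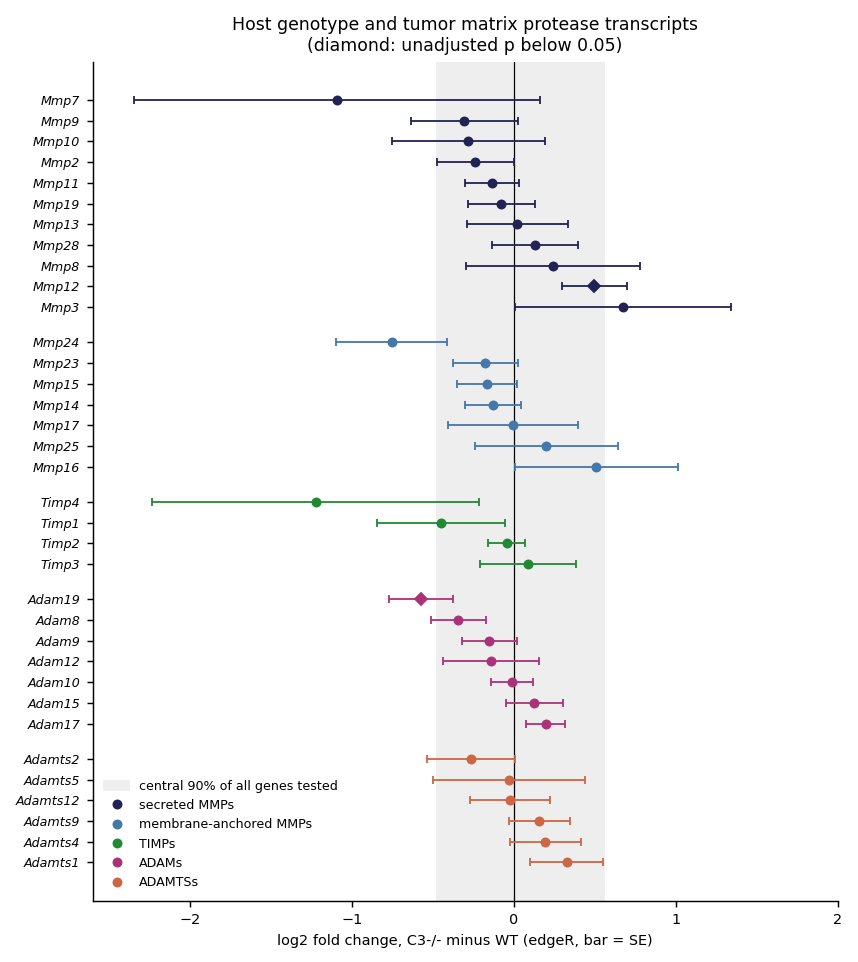
Log2 fold change of each gene, C3-/- minus WT, with its standard error from edgeR, by class. The shaded band holds the central 90% of all genes tested (-0.48 to 0.56), and diamonds mark Mmp12 (0.50) and Adam19 (-0.57), the genes with an unadjusted p below 0.05.

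Among the 11 secreted MMPs, Mmp12 was higher in C3-/- tumors at the unadjusted threshold, and 5 were higher and 6 lower by sign (median log2 fold change -0.078). Mmp12, the macrophage elastase (chr9:7344381-7369499, mm39, plus strand), was at 11.8, 14.2, 19.1 and 17.1 CPM in WT tumors 1 to 4 and at 19.7, 19.99, 28.8 and 19.4 CPM in C3-/- tumors 1 to 4. Every C3-/- tumor was thus above every WT tumor, narrowly so for C3-/- 4 over WT 3, and C3-/- 3 was far above the rest of its group. Mmp12 was the 1 gene of the 35 with no overlap between groups, against 3.73% of all genes tested (2.28% higher and 1.45% lower in C3-/- tumors). The means were 15.5 ± 3.23 and 21.95 ± 4.58 CPM (log2 fold change 0.50, SE 0.20, edgeR unadjusted p = 0.0317, adjusted p = 0.971). The exact two-sided permutation test gave p = 0.0286, the smallest that 4 against 4 allows, which follows from the lack of overlap and adds nothing to it. Without C3-/- 3 the log2 fold change was 0.33 and the edgeR unadjusted p = 0.121, and without WT 1 or WT 2 the unadjusted p was 0.0886 or 0.0742. The summed level of 8 macrophage markers was 691 to 904 CPM in WT and 607 to 1134 CPM in C3-/- tumors, with 5 of 8 markers higher, and its part in the Mmp12 difference was not tested beyond the correlation given further on.

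Stromelysin genes varied more between tumors than between genotypes. Mmp3, which degrades many matrix proteins and activates other MMPs, was at 13.4, 3.77, 5.12 and 19.997 CPM in WT and 23.4, 2.35, 17.7 and 24.6 CPM in C3-/- tumors 1 to 4. The groups overlapped, and the 3 lowest tumors (WT 2, WT 3 and C3-/- 2) were those with little skeletal muscle transcript, a match seen after the values were known. The log2 fold change was 0.67 (SE 0.67, edgeR adjusted p = 0.999), and it was 0.10 with the muscle marker level as a covariate and between 0.39 (without WT 2) and 1.19 (without WT 4) with single tumors left out. The close relative Mmp10, at 2.47 ± 1.74 and 2.03 ± 0.754 CPM, and Mmp11, named a stromelysin but located on chromosome 10, at 29.0 ± 3.71 and 26.4 ± 4.94 CPM in WT and C3-/- tumors, had log2 fold changes of -0.28 (SE 0.47) and -0.13 (SE 0.17).

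Mmp7, matrilysin, an epithelial MMP, had the largest within-group spread of the 35 genes (SD of log2 CPM 2.38). Its counts were 4, 262, 32 and 0 in WT tumors 1 to 4 and 58, 83, 30 and 20 in C3-/- tumors 1 to 4, or 0.249, 19.7, 2.41 and 0 CPM and 2.71, 4.65, 1.89 and 1.09 CPM. A single tumor, WT 2, held most of the transcript, and the C3-/- values lay within the WT range. The log2 fold change was -1.09 (SE 1.25), and it turned to 1.63 without WT 2 and to 2.13 with limma-voom, so no direction is given for this gene. In WT 2 the pancreatic islet markers were also at 73.9 CPM, against at most 2.19 CPM in any other tumor, and their part in the Mmp7 level was not tested.

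The gelatinases had lower means in C3-/- tumors, with overlapping groups. Mmp2 was at 83.8, 166, 111 and 141 CPM in WT and 94.7, 85.1, 93.6 and 152 CPM in C3-/- tumors (log2 fold change -0.24, SE 0.24). C3-/- 1, 2 and 3 and WT 1 formed the low end, and C3-/- 4 lay among the higher WT tumors. Mmp9, gelatinase B, much of which is carried by neutrophils and macrophages, ran from 29.3 to 68.9 CPM in WT and from 18.8 to 48.5 CPM in C3-/- tumors (log2 fold change -0.31, SE 0.33). With single tumors left out the log2 fold change ran from -0.46 (without C3-/- 4) to -0.074 (without WT 2) for Mmp2 and from -0.48 (without WT 1) to -0.069 (without WT 3) for Mmp9. The collagenases were low, Mmp8 at 2.52 ± 1.43 and 2.95 ± 1.29 CPM and Mmp13 at 5.89 ± 1.29 and 6.00 ± 2.27 CPM. Mmp19 (14.8 ± 1.24 and 14.0 ± 4.04 CPM) and the epithelial epilysin gene Mmp28 (32.3 ± 9.26 and 35.4 ± 11.4 CPM) had log2 fold changes of -0.078 and 0.13.

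**Figure D3:**
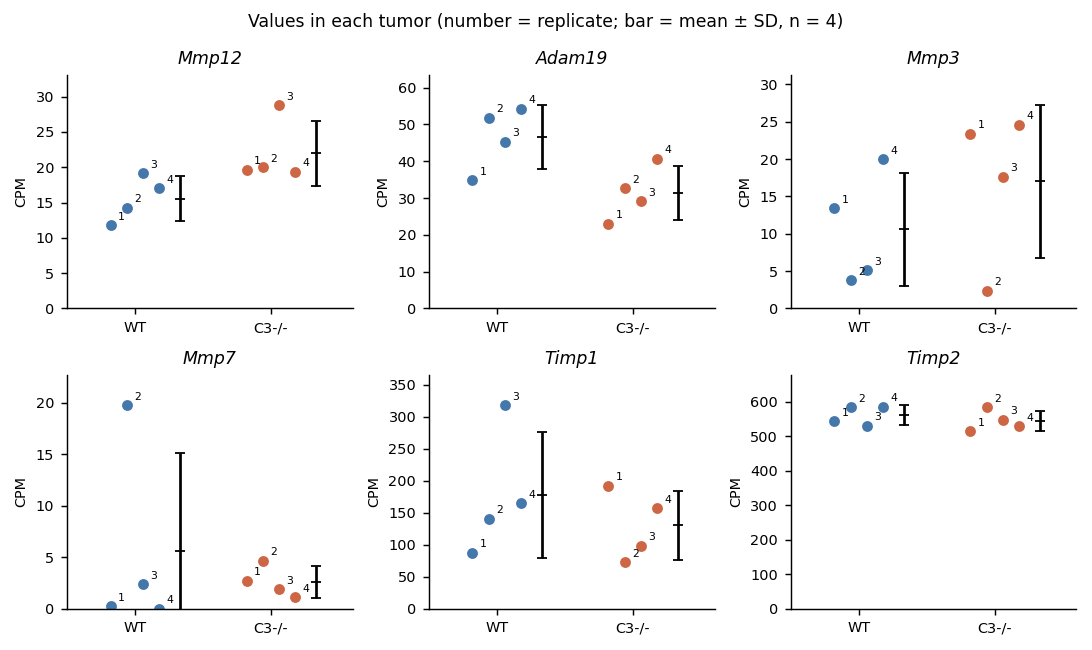
CPM in each tumor for 6 genes, with replicate numbers beside the points and mean ± SD (n = 4) at the right of each group. Mmp12 is the one gene of the 6 with no overlap, Mmp3 is lowest in WT 2, WT 3 and C3-/- 2, Mmp7 is dominated by WT 2 (its WT error bar reaches below 0 and is cut there), Timp1 is highest in WT 3, and Timp2 varies little.

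Of the secreted MMPs, 6 lie within 427 kb of chromosome 9 (chr9:7272514-7699586, mm39), a cluster that arose by gene duplication. In chromosomal order they are Mmp13, Mmp12, Mmp3, Mmp10, Mmp8 and Mmp7. Their mean levels differed, at 2.20, 2.56, 7.58, 1.29, 1.11 and 3.80 FPKM, and in the C3-/- against WT comparison their log2 fold changes were 0.022, 0.50, 0.67, -0.28, 0.24 and -1.09. AP-1, a dimer of FOS and JUN proteins, is a known regulator of several MMP promoters. The bases from 80 before to 30 after the RefSeq transcription start are shown for these 6 genes, 5′ to 3′ on the plus strand, to let their starts be compared. RefSeq lists 2 starts each for Mmp12 and Mmp7, and the one whose promoter holds the AP-1 letters is shown, so their presence in these windows is a matter of choice. The Mmp12 start shown, at base 7347374, lies inside the gene, whose first base is 7344381. Capitals mark the AP-1 letters TGAGTCA, or TGACTCA, which is the same site read on the other strand, and the letters TATAAA.
Mmp13: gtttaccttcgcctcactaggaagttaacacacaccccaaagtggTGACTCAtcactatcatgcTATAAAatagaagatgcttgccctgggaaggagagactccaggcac
Mmp12: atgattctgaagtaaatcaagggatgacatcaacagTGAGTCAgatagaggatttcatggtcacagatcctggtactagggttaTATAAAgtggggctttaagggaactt
Mmp3: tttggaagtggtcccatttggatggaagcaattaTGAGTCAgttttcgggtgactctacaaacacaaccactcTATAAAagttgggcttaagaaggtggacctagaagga
Mmp10: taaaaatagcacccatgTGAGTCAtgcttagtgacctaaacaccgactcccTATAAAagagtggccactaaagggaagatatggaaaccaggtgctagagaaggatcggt
Mmp8: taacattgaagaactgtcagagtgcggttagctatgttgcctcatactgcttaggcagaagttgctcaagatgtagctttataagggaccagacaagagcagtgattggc
Mmp7: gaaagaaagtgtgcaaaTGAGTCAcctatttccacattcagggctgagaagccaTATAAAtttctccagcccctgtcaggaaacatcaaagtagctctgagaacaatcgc

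The windows were placed on GRCm39 by exact match and lie at chr9:7272434-7272543 (Mmp13), chr9:7347294-7347403 (Mmp12), chr9:7445742-7445851 (Mmp3), chr9:7502263-7502372 (Mmp10), chr9:7558350-7558459 (Mmp8) and chr9:7692011-7692120 (Mmp7). The AP-1 letters began 35, 44, 46, 63 and 63 bases before the start in Mmp13, Mmp12, Mmp3, Mmp10 and Mmp7, and TATAAA followed 19, 48, 39, 34 and 37 bases further on, in Mmp12 from base 5 after the start. The RefSeq start of Mmp10 lies 10 bases and that of Mmp8 27 bases from the nearest GENCODE start, and those of the other 4 coincide with one. The Mmp8 window held neither set of letters in capitals. Over all 35 genes, 26 had a promoter in the RefSeq table (250 bases before to 50 after the start, GRCm38.p6), and 6 of the 26 held the AP-1 letters on either strand in at least 1 promoter: these 5 and Adam19. Mmp12 and Mmp7 held them in 1 of 2 promoters listed and Adam19 in 1 of 3. Counted by promoter, 6 of the 31 listed for the 26 genes held the AP-1 letters. Of all 32851 promoters of that length in the table, 5.2% held the AP-1 letters, 8.32% held TATAAA on the transcript strand and 0.624% held both. The genes that carry the letters had fitted fold changes in both directions, and Mmp12 and Adam19, with opposite signs, are both among them. Any link between the letters and the fold changes was not tested.

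Membrane-anchored MMPs had a median log2 fold change of -0.13, with 2 of the 7 higher and 5 lower in C3-/- tumors and none at an unadjusted edgeR p below 0.05. Mmp14 was at 577, 661, 563 and 511 CPM in WT and 712, 448, 449 and 508 CPM in C3-/- tumors 1 to 4 (log2 fold change -0.13, SE 0.17). With single tumors left out it lay between -0.054 (without C3-/- 2) and -0.30 (without C3-/- 1, edgeR unadjusted p 0.0389, where 10.7% of all genes were below 0.05), and it was -0.011 with the acinar covariate. The highest value was that of C3-/- 1, above every WT tumor. C3-/- 2, 3 and 4 lay below every WT tumor, narrowly so for C3-/- 4 (508 CPM, against 511 CPM in WT 4). Mmp15, a related membrane protease, was at 113, 77.6, 78.0 and 65.1 CPM in WT and 85.3, 85.4, 64.7 and 62.2 CPM in C3-/- tumors (log2 fold change -0.16, SE 0.19). Mmp24 had the lowest unadjusted p of the class (1.72 ± 0.644 and 1.02 ± 0.106 CPM, log2 fold change -0.75, SE 0.34, edgeR unadjusted p = 0.0528, adjusted p = 0.971). It rested on 187 counts in all 8 tumors, and its unadjusted p was below 0.05 in 3 of 20 alternatives, between 0.0244 (without WT 1) and 0.181 (without WT 2, log2 fold change -0.51). BC029722, on the opposite strand over part of the same bases, had 2054. Mmp23 (31.3 ± 5.0005 and 27.6 ± 7.26 CPM) had a log2 fold change of -0.18, and Mmp16, Mmp17 and Mmp25 were each below 2 CPM on average in both genotypes.

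The 4 TIMPs had a median log2 fold change of -0.25, with 1 higher and 3 lower in C3-/- tumors and none past either threshold in edgeR. Timp1 was at 87.7, 141, 318 and 165 CPM in WT and 192, 73.0, 98.6 and 157 CPM in C3-/- tumors 1 to 4. The WT mean was carried by WT 3. The log2 fold change was -0.45 (SE 0.39, edgeR adjusted p = 0.999) and -0.0095 without that tumor. Timp2 was at 544, 584, 529.8 and 585 CPM in WT and 515, 583, 547 and 529 CPM in C3-/- tumors (log2 fold change -0.045, SE 0.11). It had the smallest within-group spread of the 35 genes, with an SD of 0.0754 on the log2 scale.

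Timp3, the matrix-bound inhibitor, was at 96.5, 116, 87.1 and 159.98 CPM in WT and 59.2, 147, 118 and 166 CPM in C3-/- tumors. The groups overlapped, and the lowest value, that of C3-/- 1, fell in the tumor with the most acinar transcript (log2 fold change 0.090, SE 0.30, and -0.38 with the acinar marker level as a covariate). Timp4 had low counts, with 6, 48, 1 and 30 counts in WT and 15, 0, 7 and 20 counts in C3-/- tumors, so that its log2 fold change of -1.22 (SE 1.01) rested mainly on WT 2, without which it was -0.12. Timp1, Timp3 and Timp4 each lie within an intron of, and opposite in strand to, a synapsin gene, whose counts in all tumors were 437 (Syn1), 164 (Syn3) and 117 (Syn2). The Syn2 total was close to the 127 counts of Timp4.

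ADAM proteases had a median log2 fold change of -0.14, with 2 of 7 higher and 5 lower in C3-/- tumors. Adam19, a sheddase of neuregulins that is expressed in mesenchyme (chr11:45946819-46038170, mm39, plus strand), was at 34.9, 51.8, 45.4 and 54.3 CPM in WT and 23.0, 32.6, 29.1 and 40.6 CPM in C3-/- tumors 1 to 4. C3-/- 1, 2 and 3 lay below every WT tumor, and C3-/- 4 lay above WT 1. The means were 46.6 ± 8.67 and 31.3 ± 7.37 CPM (log2 fold change -0.57, SE 0.20, edgeR unadjusted p = 0.0161, adjusted p = 0.960), and the exact two-sided permutation test gave p = 0.0571. Without WT 4 the edgeR unadjusted p was 0.0503. Adam8, a protease of leukocytes and tumor cells, followed with 52.1 ± 9.21 and 41.1 ± 7.31 CPM (log2 fold change -0.34, SE 0.17, edgeR unadjusted p = 0.0748, adjusted p = 0.971).

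The 3 most abundant ADAMs had overlapping groups. Adam9 was at 313, 355, 268 and 348 CPM in WT and 207, 302, 317 and 332 CPM in C3-/- tumors (log2 fold change -0.15, SE 0.17), with C3-/- 1 the lowest. For Adam9 the log2 fold change was -0.020 without C3-/- 1 and -0.37 with the acinar marker level as a covariate, where the edgeR unadjusted p was 0.0155. Adam10, the main sheddase of Notch receptors, was at 211, 208, 219 and 232 CPM and at 173, 250.02, 224 and 218 CPM (log2 fold change -0.010, SE 0.13). Adam15 was at 86.1, 99.7, 88.0 and 70.6 CPM and at 129, 81.9, 80.1 and 84.4 CPM (log2 fold change 0.13, SE 0.18). In each of these 3 genes C3-/- 1 stood at one end of all 8 tumors, lowest for Adam9 and Adam10 and highest for Adam15. Adam17, the enzyme that releases tumor necrosis factor, was at 80.5 ± 7.53 and 92.2 ± 9.74 CPM (log2 fold change 0.20, SE 0.12, edgeR unadjusted p = 0.136), and Adam12, a fibroblast-expressed member, at 40.1 ± 10.7 and 36.4 ± 16.5 CPM (log2 fold change -0.14, SE 0.30).

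The 6 ADAMTS genes were split evenly by sign, with a median log2 fold change of 0.068. Adamts1, a protease of versican and aggrecan, was at 60.6, 81.5, 39.0 and 70.8 CPM in WT and 61.2, 84.5, 71.2 and 99.4 CPM in C3-/- tumors (log2 fold change 0.33, SE 0.23). WT 3 was lowest and C3-/- 4 highest, and the other tumors overlapped. Adamts2, which removes the amino-terminal propeptide of fibrillar procollagens, was at 46.7, 90.3, 59.4 and 80.8 CPM and at 60.0, 42.3, 42.4 and 86.3 CPM (log2 fold change -0.26, SE 0.27, -0.11 without WT 2 and -0.52 without C3-/- 4). Adamts4, an aggrecanase, was at 26.6, 33.9, 23.3 and 36.7 CPM and at 26.9, 26.5, 38.3 and 46.2 CPM (log2 fold change 0.19, SE 0.22). For Adamts2 the higher values came from WT 2, WT 4 and C3-/- 4, and for Adamts4 the groups overlapped except at C3-/- 3 and 4. Adamts5 (12.03 ± 6.45 and 11.8 ± 5.55 CPM), Adamts9 (38.1 ± 6.84 and 42.6 ± 8.94 CPM) and Adamts12 (39.8 ± 8.30 and 39.2 ± 13.2 CPM) had log2 fold changes of -0.029, 0.16 and -0.021.

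**Figure D4:**
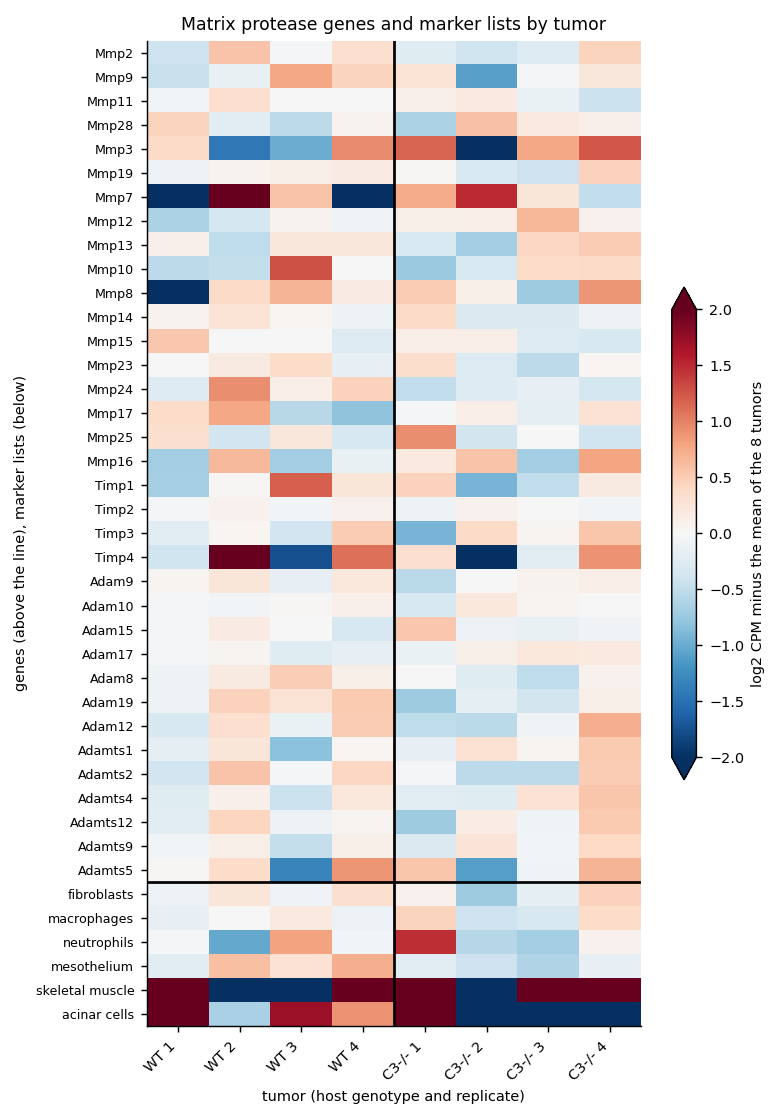
Log2 CPM of the 35 genes (above the line) and mean log2 CPM of 6 marker lists (below it) in each tumor, minus the mean of the 8 tumors; colors saturate at 2 log2 units either way. Mmp7, Timp4, Mmp3 and Mmp8 show the strongest contrasts between single tumors, Timp2 is nearly even, and the muscle and acinar lists vary within both genotypes.

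Other genes of matrix proteolysis were followed as 73 genes on 8 lists. Of these, 71 were in the table and 58 were tested, and 0 had an adjusted p below 0.05 in edgeR. By sign 15 were higher and 43 lower in C3-/- tumors, where 50% of all genes tested were higher (median log2 fold change -0.13). Among the marker lists, tumor epithelium had 0 higher and 6 lower of 6 (median -0.18). Acinar cells had 9 higher and 1 lower of 10 (median 0.80), a lean that rested on C3-/- 1. The part of both lists in these counts was not tested. Of the 58 genes, 2 had an unadjusted p below 0.05, both lower, against 5.11% of all genes tested. Plau, the urokinase gene, is one of them and belongs to the plasminogen activators, which turn plasminogen into plasmin, a protease that activates pro-MMPs. Plau was at 37.6, 50.9, 56.9 and 50.3 CPM in WT and at 38.5, 37.0, 32.1 and 44.9 CPM in C3-/- tumors (log2 fold change -0.36, SE 0.16, edgeR unadjusted p = 0.0475, adjusted p = 0.971). WT 2, 3 and 4 were above every C3-/- tumor and WT 1 lay among the C3-/- tumors.

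By list, 1 gene was higher and 5 were lower of 6 tested for plasminogen activators, 0 and 6 of 6 for other ADAMs, 3 and 7 of 10 for other ADAMTSs, 1 and 7 of 8 for MMP activators and inhibitors, 3 and 7 of 10 for cathepsins and cystatins, and 3 and 5 of 8 for procollagen and serine proteases. The AP-1 and ETS factors, which include those that bind the letters shown, had 4 higher and 6 lower of 10. The most abundant gene of each list was Plat (89.2 ± 19.0 FPKM), Adam28 (2.47), Adamts10 (5.02), Bsg (354 ± 79.1), which induces MMPs in neighboring fibroblasts, Ctsd (197 ± 50.5), Pcolce (49.0 ± 10.1) and Junb (150.3 ± 33.6), and of the remaining MMPs, none of which was tested, Mmp27 (0.129). Their log2 fold changes where tested lay between -0.33 (Plat) and 0.34 (Adamts10).

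Whether a protease followed the transcripts of a cell type over the 8 tumors was examined for 8 pairs of a gene and a marker list, each on the scale of log2 CPM. Adamts2 followed the fibroblast list (Pearson r = 0.88, exact permutation p = 0.00124, adjusted over the 8 pairs 0.00992, Spearman rho = 0.93, exact permutation p = 0.00223, adjusted 0.0179), and r was 0.94 without the 2 tumors farthest from the median of the list. Mmp2 passed with the same list by Pearson's r and not by Spearman's rho after adjustment (r = 0.80, exact permutation p = 0.0117, adjusted 0.0467, rho = 0.83, exact permutation p = 0.0154, adjusted 0.0615, and r = 0.82 without the 2 farthest tumors). Mmp14 did not pass with the same list (r = 0.43, rho = 0.36, exact permutation p = 0.289 and 0.389, adjusted 0.462 and 0.519, r = 0.39 without the 2 tumors), and neither did Timp2 (r = -0.20, rho = -0.071, exact permutation p = 0.656 and 0.882, adjusted 0.749 and 0.882, r = 0.62 without the 2 tumors). Both points of highest and lowest fibroblast level were C3-/- tumors, and 4 tumors per genotype are too few for a correlation within each.

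With the neutrophil list, which was sparse at 26.6 to 119 CPM in all, none of the 3 genes passed after adjustment. Mmp25, a neutrophil membrane protease, had r = 0.79 (exact permutation p = 0.0193, adjusted 0.0514) but rho = 0.52 (exact permutation p = 0.197, adjusted 0.315), and r = 0.38 without C3-/- 1 and WT 2, so the relation rested on those tumors. Mmp9 had r = 0.56 and rho = 0.57 (exact permutation p = 0.148 and 0.151, adjusted 0.297 and 0.315, r = 0.72 without the 2 tumors), and Mmp8 had r = 0.28 and rho = 0.52 (exact permutation p = 0.501 and 0.197, adjusted 0.668 and 0.315, r = 0.37). Mmp12 did not follow the macrophage list (r = -0.072, rho = -0.17, exact permutation p = 0.863 and 0.703, adjusted 0.863 and 0.804, r = -0.35 without the 2 farthest tumors). The points share each tumor's library and its admixed tissue.

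**Figure D5:**
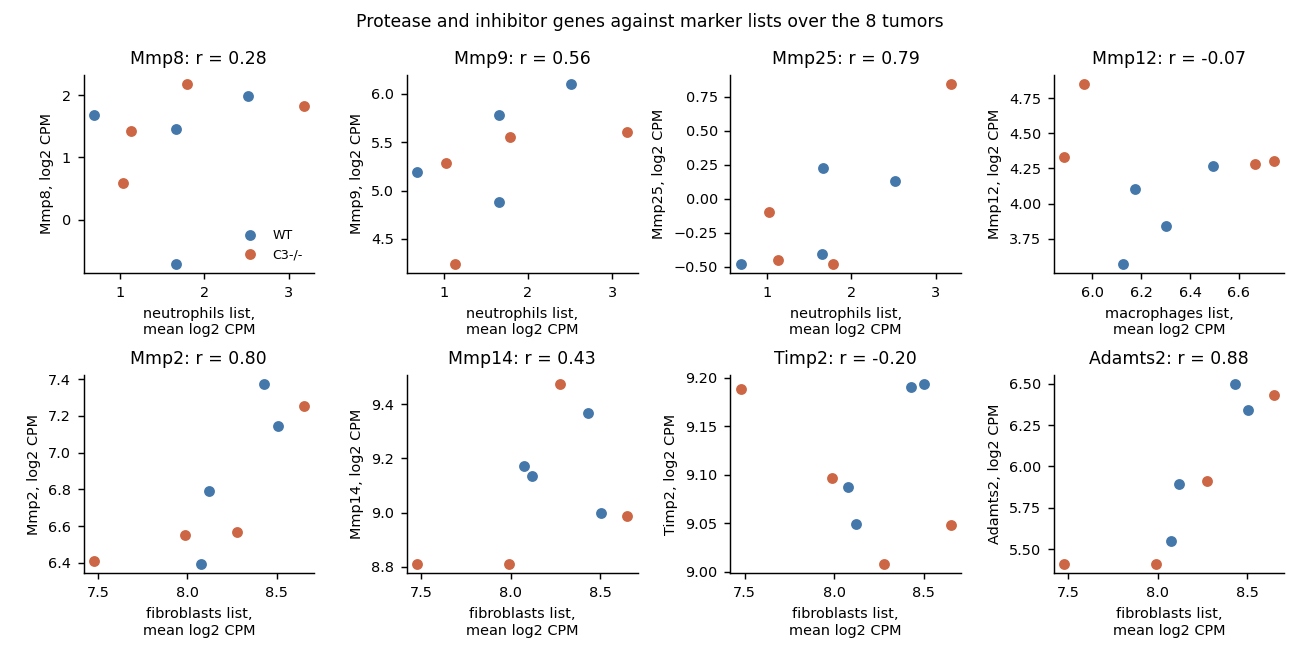
Log2 CPM of 7 proteases and of Timp2 (vertical axes) against the mean log2 CPM of a marker list (horizontal axes) in 4 WT (blue) and 4 C3-/- (orange) tumors. Adamts2 and Mmp2 rise along the fibroblast list, the Mmp25 relation is weaker (r = 0.38) without C3-/- 1, at the far right, and WT 2, at the far left, and Mmp12 shows no trend along the macrophage list.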

How the data were processed

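The authors extracted RNA from KPC tumors with Trizol, and poly-A selected, paired-end libraries were sequenced. The study's methods name STAR and HTSeq for alignment and counting, whereas the submitters' processing notes name HISAT2 2.0.5 and DESeq2 1.20.0, so the aligner is uncertain. The strand setting is not given in the sources used here, and 21 of the 35 genes overlap another gene in the table (18 on the opposite strand), so their reads could be shared. The authors deposited raw counts per gene on mm39, FPKM values (per the deposited columns, counts divided by gene length and by a size-factor scaled library size) and a size-factor normalized signal, in which the authors divided each count by a constant of its tumor. The signal, the authors' group means and their DESeq2 fold changes and p-values were not used.

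Counts were tested with edgeR 4.0.16 (filterByExpr, minimum count 10, TMM, glmQLFTest, Benjamini-Hochberg over 16610 genes) in R 4.3.3, with all 8 tumors and no covariate. The labels number the tumors within a genotype and do not describe the animals further, so p-values measure the spread between these tumors. The count of 3 given as a floor covers counting error only. Correlations used exact permutation (scipy 1.17.1). The alternatives were DESeq2 1.42.0 and its size factors, limma 3.58.1 (voom, and log2 of the deposited FPKM plus 0.1 or 1, for genes with a mean of at least 0.1 FPKM), 2 other filters, robust fitting, a replicate block, acinar or muscle levels as covariates, and tumors left out. Fits were tested on simulated data. No 2 libraries were alike (lowest chi-square per gene 15.0). Values in every tumor are given for genes with an unadjusted p below 0.05, for the 3 most abundant genes of the MMP, ADAM and ADAMTS families, for the TIMPs and for the 3 genes with the largest within-group spread. The genes, lists and tests were chosen with earlier results of these data known. Promoter sequences are from RefSeq. Protein sequences were not used here, and 1 gene of the other lists is not reported here.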

Additional observations from a re-analysis of the deposited data

Results flagged for a closer look

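In 5 of the 70 groups of 4 tumors looked at (35 genes in each genotype), 1 tumor stood far from the other 3 by Dixon's criterion, where chance gives about 1 in 20, or 3.5. Mmp3 was at 2.35 CPM in C3-/- 2, below 17.7 to 24.6 CPM in the other C3-/- tumors. Mmp11 was at 34.5 CPM in WT 2, above 26.5 to 27.5 CPM in the other WT tumors. Mmp12 was at 28.8 CPM in C3-/- 3, above 19.4 to 19.99 CPM in the other C3-/- tumors. Mmp13 was at 3.99 CPM in WT 2, on 53 counts, below 6.16 to 6.72 CPM in the other WT tumors. Adam15 was at 129 CPM in C3-/- 1, above 80.1 to 84.4 CPM in the other C3-/- tumors.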

How the results depend on the processing

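In all 20 alternatives 0 of the genes fitted had an adjusted p below 0.05, with 30 of the 35 fitted at a minimum of 10 counts in every tumor, 34 in both FPKM fits and without both C3-/- 1 and WT 4, and 35 in the others. Where run, 0 of the companion genes did. Over all genes the count was 16 with DESeq2, 4 without both C3-/- 1 and WT 4, and 0 to 4 with single tumors left out (4 without C3-/- 1). The count of the 35 at an unadjusted p below 0.05 was 4 with the acinar covariate (5.89% of all genes in that fit), 1 on log2(FPKM + 1) (5.13%), 4 without both C3-/- 1 and WT 4 (12.4%), and 1 to 4 with single tumors left out (2.75% to 10.7%). It was 1 without WT 2 (5.27%), WT 4 (3.95%) or C3-/- 3 (2.75%) and 4 without C3-/- 1 (10.7%). Besides Mmp12 and Adam19, the genes that passed were Mmp24, Adam9 and Adamts12 (log2 fold change -0.37) with the acinar covariate, Mmp24 with at least 10 counts in every tumor, Mmp24 and Adam8 (-0.43) without WT 1, Mmp14 and Adam17 (0.27) without C3-/- 1, Adam8 without C3-/- 4, and Mmp14, Mmp23 (-0.43) and Timp3 (0.52) without both C3-/- 1 and WT 4. Their median log2 fold change stayed between -0.11 and -0.025. Mmp12 passed the unadjusted threshold in 15 of 20 alternatives (unadjusted p from 0.0156 to 0.121, log2 fold change 0.33 to 0.61) and Adam19 in 18 (from 0.000953 to 0.0902, log2 fold change -0.79 to -0.37). Plau passed it in 9 of 20 (largest unadjusted p 0.125, without C3-/- 3). The cause of these changes was not tested. The replicate numbers did not pair the tumors (correlations of same-numbered deviations -0.03, 0.49, -0.36 and 0.59), and with the replicate block 2 of the 35 were at an unadjusted p below 0.05, the same genes Mmp12 (p = 0.0177) and Adam19 (p = 0.00278). Of 692 values for single genes under alternatives, 66 had the opposite sign, in 19 genes. No value of the opposite sign had an unadjusted p below 0.05. Log2 fold changes of the opposite sign follow by setting. With the acinar covariate they were Mmp13 -0.13, Mmp28 -0.11, Timp3 -0.38, Adamts4 -0.0037, Adamts5 0.013, Adamts9 -0.011. With at least 10 counts in every tumor they were Mmp17 0.0099. On log2(FPKM + 0.1) they were Mmp7 1.01, Mmp13 -0.030, Mmp17 0.060, Adamts5 0.011. On log2(FPKM + 1) they were Mmp7 0.10, Mmp13 -0.011, Mmp17 0.0013. With voom they were Mmp7 2.13, Mmp13 -0.065, Mmp17 0.19. With the replicate block they were Mmp7 0.70, Mmp13 -0.023, Mmp17 0.11, Adamts5 0.026. With the muscle covariate they were Mmp7 1.47, Mmp13 -0.14, Mmp17 0.076, Adam10 0.0029, Adamts12 0.014. With single tumors or both C3-/- 1 and WT 4 left out, the ranges were Adam10 -0.087 to 0.11, Adam12 -0.50 to 0.15, Adam15 -0.15 to 0.20, Adam9 -0.23 to 0.021, Adamts12 -0.23 to 0.16, Adamts5 -0.31 to 0.32, Mmp10 -0.48 to 0.31, Mmp13 -0.16 to 0.21, Mmp15 -0.34 to 0.016, Mmp17 -0.23 to 0.34, Mmp19 -0.28 to 0.026, Mmp25 -0.38 to 0.36, Mmp28 -0.063 to 0.34, Mmp7 -1.54 to 1.63, Mmp8 -0.10 to 0.51, Timp2 -0.080 to 0.00021, Timp3 -0.091 to 0.52 for genes that changed sign and Mmp2 -0.46 to -0.074, Mmp3 0.39 to 1.19, Mmp9 -0.48 to -0.069, Mmp11 -0.22 to -0.023, Mmp12 0.33 to 0.61, Mmp14 -0.36 to -0.054, Mmp16 0.29 to 0.93, Mmp23 -0.43 to -0.061, Mmp24 -0.93 to -0.51, Timp1 -0.73 to -0.0095, Timp4 -1.76 to -0.12, Adam8 -0.43 to -0.22, Adam17 0.15 to 0.27, Adam19 -0.73 to -0.37, Adamts1 0.16 to 0.49, Adamts2 -0.52 to -0.11, Adamts4 0.020 to 0.40, Adamts9 0.041 to 0.33 for those that did not. The Timp2 correlation with the fibroblast list was 0.62 without the 2 farthest tumors. The 5 most abundant genes by FPKM were also the 5 highest by CPM. The lowest total counts over the 8 tumors were those of Mmp16 (105), Mmp25 (124), Timp4 (127) and Mmp24 (187).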

Other observations

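Markers of other tissues varied beside the proteases. Over all genes tested, 50% were higher by sign in C3-/- tumors and 2.07% were lower at an unadjusted edgeR p below 0.05. Of the 5 mesothelial markers tested, 5 were lower in C3-/- tumors by sign and 3 at that p, Upk3b (log2 fold change -1.43), Lrrn4 (-1.30) and Upk1b (-0.91). Of the 6 hepatocyte markers tested, 2 were higher and 4 lower by sign, and Alb and Fgb were lower at that p, with fitted log2 fold changes of -3.88 and -4.62 that rest on levels of at most 2.07 and 0.616 CPM in C3-/- tumors. The mesothelial list summed to 486 to 572 CPM in WT and 366 to 549 CPM in C3-/- tumors. Of the 8 fibroblast markers, 1 was higher and 7 were lower by sign, with sums of 7465 to 11043 CPM and 4457 to 11354 CPM. Other lists leaned the opposite way, with 9 of 10 acinar markers (median log2 fold change 0.80), 8 of 10 skeletal muscle markers (0.22) and 3 of 5 neutrophil markers (0.39) higher in C3-/- tumors, of which 1 neutrophil marker was higher at an unadjusted edgeR p below 0.05 (3.03% of all genes tested). The acinar lean rested on C3-/- 1, at 1786 CPM. C3-/- 2, 3 and 4 were at 67.4, 42.6 and 39.5 CPM, below the 169 to 535 CPM of the WT tumors. The part of these lists in the protease values was not tested beyond the correlations and the fits with acinar or muscle levels as covariates given above.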
